A study of Arabidopsis thaliana with 32 samples.

Results

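The 8 genes described here encode basic helix-loop-helix (bHLH) transcription factors that control root hairs in Arabidopsis thaliana: RHD6 (AT1G66470), RSL1 (AT5G37800), RSL2 (AT4G33880), RSL3 (AT2G14760), RSL4 (AT1G27740), LRL1 (AT2G24260), LRL2 (AT4G30980) and LRL3 (AT5G58010). They were taken by locus identifier, and all 8 are among the 30385 loci of the deposited table. 5 belong to the RHD6 and RSL group and 3 to the LRL group. The study compared gene expression in whole seedlings of Columbia wild type and of the sahh1 mutant at ages of 1, 4, 7 and 10 days, with 4 single-colour arrays per group in 8 groups. The mutant carries a defect in S-adenosylhomocysteine hydrolase 1, the enzyme that clears the by-product of methylation by S-adenosylmethionine. The labels name no allele of sahh1, no growth medium and no treatment, and the RNA is that of whole seedlings, in which root hair cells are a small part.

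A root hair is a tubular outgrowth of a single epidermal cell of the root. RHD6 and RSL1 are class I RSL proteins, which act first in cells already set aside as hair cells and start hair formation. They switch on the class II proteins RSL2, RSL3 and RSL4, which drive hair growth, and the amount of RSL4 is known to set how long a hair grows. LRL1, LRL2 and LRL3 are the Arabidopsis relatives of a root hair gene of Lotus japonicus, and they promote hair growth together with the class II proteins. LRL3 transcript is known to depend on RHD6. Further downstream lie genes for wall proteins, expansins, peroxidases and kinases that build the growing hair.

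Arrays 1 and 2, and arrays 3 and 4, of each group lay closer to each other than the pairs did, so a sample here is the mean of such a pair, with n = 2 samples in every group. What the pairs and samples are is not in the labels, so the p-values measure the spread between these samples, which may be technical. Array medians of intensity were lowest at day 4 (449 to 493) and highest at day 7 (1793 to 1945), with day 1 (995 to 1054) and day 10 (956 to 982) between. For that reason the genotypes of 1 age were set against each other as deposited, and ages only after quantile normalization. The sahh1 samples of day 4 stood further apart than the samples of the other 7 groups. The SD of the difference, over loci with the dimmest 25% set aside, was 0.744 against 0.236 to 0.461. Values without 1 of these day 4 samples are therefore given where that changes a call. The SAHH1 transcript (AT4G13940) was lower in each mutant array than in each wild-type array of its age, at a mean of 41.6%, 34.5%, 71.7% and 58.8% of the wild-type level from the youngest to the oldest seedlings. Differences below are sahh1 minus wild type in log2 units with the standard error of the limma fit, and a gene is called where its p-value, adjusted by Benjamini-Hochberg over all loci, is under 0.05. In whole seedlings, fewer root hair cells and less transcript per cell cannot be told apart.

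Of the class I genes, neither RHD6 nor RSL1 was called between the genotypes at any age. In wild type, RHD6 read 10.46 and 10.67 log2 units in the 2 samples of day 1, 6.50 and 7.37 at day 4, 7.33 and 7.72 at day 7, and 6.84 and 7.01 at day 10. In sahh1 the same gene read 10.75 and 10.51, 6.43 and 6.05, 7.68 and 7.42, and 7.18 and 6.45. The samples of both genotypes overlapped at days 1, 7 and 10, while at day 4 both mutant samples were below both wild-type samples, although single arrays overlapped. The differences were 0.07, -0.70, 0.03 and -0.11 at the 4 ages (SE 0.30 each), and that of day 4 had an adjusted p of 0.306 (unadjusted p = 0.0413).

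RSL1, the close paralogue of RHD6 that acts redundantly with it, was dim after day 1. Its wild-type samples read 6.30 and 6.27 at day 1, 5.14 and 5.28 at day 4, 4.29 and 4.56 at day 7, and 4.19 and 4.35 at day 10. The mutant samples read 6.09 and 6.47, 5.11 and 5.26, 4.78 and 4.75, and 4.49 and 4.41. At days 7 and 10 both mutant samples were above both wild-type samples, by 0.34 and 0.18 on average (SE 0.16), but single arrays overlapped and neither difference was called (adjusted p = 0.682 and 1.00).

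Among the class II genes, RSL2 was the one with mutant arrays lying wholly below wild type at more than 1 age. Those ages were day 7 and day 10, where 5.68% and 7.14% of all loci did so. RSL2 read 6.74 and 6.95 in wild type at day 1, 7.21 and 7.83 at day 4, 7.05 and 6.97 at day 7, and 6.17 and 6.56 at day 10. In sahh1 it read 6.64 and 7.06, then 6.72 and 5.42, then 6.69 and 6.35, then 5.87 and 5.33. The genotypes were level at day 1 (difference 0.00), and from day 4 on both mutant samples were below both wild-type samples. The differences of -1.45, -0.49 and -0.77 (SE 0.37) at days 4, 7 and 10 were not called (adjusted p = 0.0901, 0.985 and 0.790), nor was the mean over the ages, -0.68 ± 0.19 (SE, 95% interval -1.09 to -0.27, adjusted p = 0.0894). The second mutant sample of day 4 was far lower than the first. Without the first, RSL2 was called at day 4 (adjusted p = 0.00917, with 5.59% of all loci called) and on the mean of the ages (-0.84, adjusted p = 0.00659), and without the second the day 4 difference was -0.80 (adjusted p = 0.120). With quantile normalization over all arrays the day 4 difference was -2.50 and called (adjusted p = 0.0392, 4.4% of all loci called).

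RSL3, the third class II gene named here, was dim in all groups and was not called between the genotypes. Its wild-type samples read 4.45 and 4.34, 5.37 and 5.44, 5.14 and 5.50, and 4.76 and 4.28 at days 1, 4, 7 and 10. Those of sahh1 read 4.24 and 4.12, 5.41 and 6.01, 4.96 and 5.12, and 4.78 and 3.99. No age had arrays apart between the genotypes, and the differences of -0.21, 0.31, -0.28 and -0.14 (SE 0.27) changed sign between ages.

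RSL4, the class II gene whose dose sets hair length, was lower in the mutant arrays at day 10 and mixed before that. Its wild-type samples read 10.47 and 10.40 at day 1, 8.58 and 8.97 at day 4, 8.33 and 7.84 at day 7, and 6.83 and 6.44 at day 10. The mutant samples read 10.39 and 10.58, 7.31 and 9.31, 8.50 and 7.49, and 5.66 and 5.27. At day 4 the first mutant sample was below both wild-type samples and the second above both, and at day 7 likewise 1 was above and 1 below. At day 10 all 4 mutant arrays were below all 4 wild-type arrays, where 7.14% of all loci did so. The difference of -1.17 ± 0.52 (SE) was not called (95% interval -2.31 to -0.03, adjusted p = 0.689). The mean over the ages was -0.42 ± 0.26 (adjusted p = 0.600). Without the second mutant sample of day 4, which raised the share of all loci called at day 4 to 16.6%, RSL4 was called at that age (-1.46, adjusted p = 0.0297) and on the mean of the ages (-0.67, adjusted p = 0.0419).

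LRL1 and LRL2 were close to wild type on average. LRL1 read 13.39 and 13.59 in wild type at day 1, 11.65 and 11.94 at day 4, 12.34 and 12.52 at day 7, and 11.96 and 11.69 at day 10. In sahh1 it read 13.73 and 13.59, 10.80 and 11.99, 12.42 and 12.29, and 11.67 and 11.48. Apart from the first mutant sample of day 4, no mutant sample differed from the wild-type mean of its age by more than 0.35, and that one differed by -0.99. LRL2 read 12.46 and 12.33, 10.43 and 10.37, 10.73 and 11.09, and 9.86 and 9.69 in wild type. Its mutant samples read 12.21 and 12.06, 9.44 and 10.84, 11.07 and 11.26, and 10.07 and 9.72. LRL2 was the 1 gene of the 8 with all mutant arrays below wild type at day 1 (-0.26 ± 0.34, SE, adjusted p = 1.00), where 8.95% of all loci were so. At day 4 its mutant samples lay on either side of wild type. Mean differences over the ages were -0.14 ± 0.15 for LRL1 and -0.04 ± 0.17 for LRL2 (adjusted p = 0.820 and 0.972). Without the second mutant sample of day 4 both were called at that age, LRL1 at -0.99 and LRL2 at -0.96. The share of all loci called at day 4 rose in that fit, too.

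LRL3 was the only gene of the 8 called between the genotypes in the comparisons as reported, on the mean of the ages. RSL2 also had both mutant samples below wild type from day 4 on, with an uncalled mean of -0.68 (adjusted p = 0.0894). Wild-type samples read 11.17 and 11.08 at day 1, 10.03 and 10.35 at day 4, 9.71 and 9.33 at day 7, and 8.43 and 8.15 at day 10. Mutant samples read 11.03 and 11.31 at day 1, 7.71 and 9.42 at day 4, 8.89 and 8.24 at day 7, and 6.66 and 6.02 at day 10. The genotypes overlapped at day 1, and at days 4, 7 and 10 all 4 mutant arrays were below all 4 wild-type arrays. Of all loci, 6.15%, 5.68% and 7.14% did so at days 4, 7 and 10. On the mean of the ages the difference was -1.12 ± 0.22 (SE, 95% interval -1.61 to -0.63, adjusted p = 0.0152), which is 46.0% of the wild-type level. By age the differences were 0.05, -1.63, -0.96 and -1.95 (SE 0.45), with adjusted p = 1.00, 0.106, 0.689 and 0.0823, so no single age was called. At day 10 the mutant level was 25.9% of wild type, at day 7 51.6% and at day 4 32.4%.

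Single samples moved these LRL3 values. The call on the mean of the ages was lost without the second wild-type sample of day 4 (-1.08, adjusted p just above 0.05) and held without any other sample. It also held with day 4 left out of the mean altogether (-0.95, adjusted p = 0.0123), an alternative chosen after the data were seen. At day 4 the first mutant sample was the lower one. Leaving out the second gave a called difference of -2.48 and leaving out the first gave -0.77, not called. More of all loci were called at day 4 in both fits. The day 10 difference was called with the 2 groups of day 10 fitted alone (adjusted p = 0.0367). It was called, too, on omission of either mutant sample of day 4, which enter only the shared estimate of spread. More of all loci were called at day 10 in those fits.

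**Figure D1:**
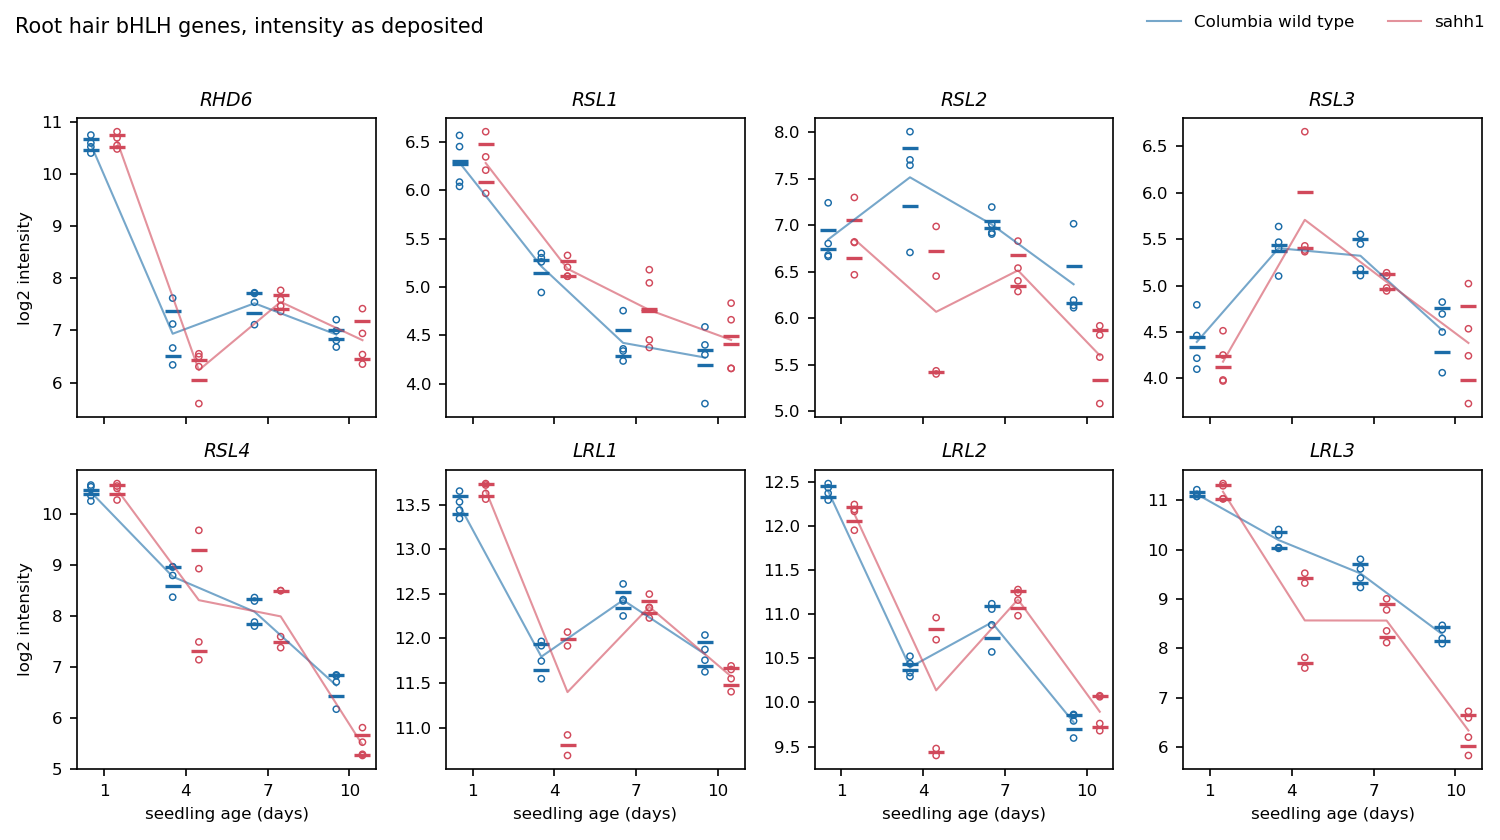
Log2 intensity as deposited (vertical axis, own range per gene) of the 8 root hair bHLH genes against seedling age in days. Circles are single arrays, bars are the 2 samples of a group and lines join group means, blue for Columbia wild type and red for sahh1. LRL3 shows the red points below the blue ones from day 4 to day 10, and the red bars of day 4 stand far apart for RSL2, RSL4, LRL1, LRL2 and LRL3. Heights at different ages are not to be compared directly, since array medians differ between ages.

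Calls of the 8 genes between the genotypes are set here beside the share of all loci called. None was called between the genotypes at day 1 (2.46% of all loci were), day 4 (1.61%), day 7 (0.629%) or day 10 (1.02%), where limma gave an unadjusted p under 0.05 for 0, 3, 0 and 2 of them. The 3 at day 4 were RHD6, RSL2 and LRL3, and the 2 at day 10 were RSL4 and LRL3. With the 32 arrays counted as replicates, the 8 genes had 3 calls at day 4 (17.7% of all loci) and 1 at day 10 (4.29%). On the mean of the ages 1 of 8 was called, LRL3, lower, against 3.48% of all loci in either direction and 1.03% lower. The median difference of the 8 was 0.03, -0.43, -0.08 and -0.19 at days 1, 4, 7 and 10, beside -0.02, 0.02, 0.01 and -0.01 for all loci. Differences were negative for 3, 7, 5 and 6 of the 8. All 4 mutant arrays lay below all 4 wild-type arrays for 1, 1, 2 and 3 genes, where 8.95%, 6.15%, 5.68% and 7.14% of all loci did so. At day 10 those 3 were RSL2, RSL4 and LRL3. None of the 8 had all mutant arrays above wild type at any age (7.95%, 6.38%, 7.51% and 6.01% of all loci).

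**Figure D2:**
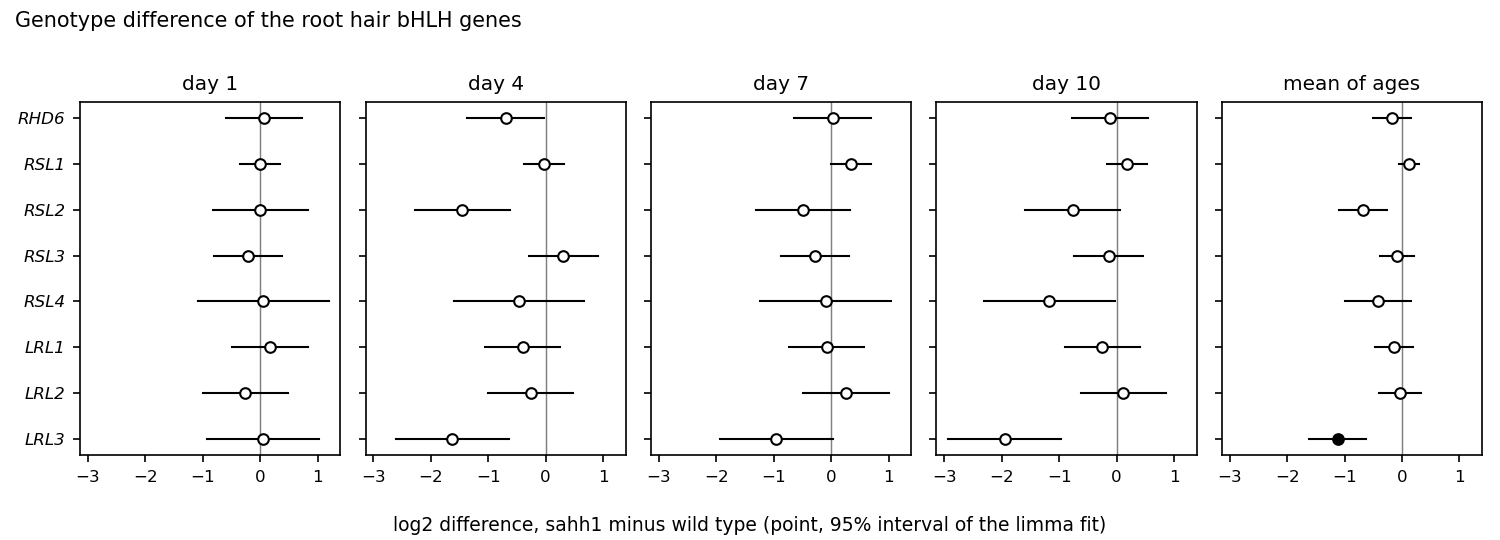
Difference between sahh1 and wild type in log2 units (horizontal axis) for each of the 8 genes, for each age and for the average of the ages. Points are limma estimates, lines their 95% intervals, and the filled point is the one called, LRL3 on the mean of the ages at -1.12. Points of day 1 lie within 0.26 of 0, and LRL3 is leftmost at days 4, 7 and 10.

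RHD6 and RSL1 fell steeply from day 1 to day 4 in both genotypes. After quantile normalization the drop of RHD6 was -2.52 ± 0.33 (SE) in wild type and -3.91 ± 0.33 in sahh1, and that of RSL1 was -2.20 ± 0.13 and -2.13 ± 0.13 (adjusted p at most 8.12e-05). They were the 2 of 8 genes called in wild type at this step, where 51.8% of all loci were called and 27.7% were lower. In the mutant 4 of 8 were called, all lower, where 49.1% of loci were called and 26.3% were lower. The other 2 were LRL1 (-1.06 ± 0.29, adjusted p = 0.0110) and LRL3 (-1.53 ± 0.48, adjusted p = 0.0227). RSL2 moved the other way in wild type, from 7.08 and 7.24 to 8.18 and 8.87 (1.36 ± 0.58, adjusted p = 0.0727), which was not called. Its mutant samples went from 6.95 and 7.21 to 7.25 and 4.80. The falls of RHD6 and RSL1 stayed called in every alternative that kept those genes, with RHD6 between -3.63 and -2.02 in wild type. RSL1 ranged from -2.30 to -1.07 there and from -2.24 to -1.09 in sahh1, the smaller falls being those of the values as deposited. The LRL1 fall in the mutant was lost without the first mutant sample of day 1 (adjusted p = 0.0644). The LRL3 fall was lost without the first (0.0643) or second (0.0996) mutant sample of day 1 and, at -0.56, without the first mutant sample of day 4 (0.127), and also with array weights (0.0524). Omitting that first day 4 sample made RSL2 (-2.28, adjusted p = 1.09e-04) and RSL3 (1.37, adjusted p = 0.00134) called in the mutant, with 59.9% of all loci called. Omitting the second made RSL4 (-2.34, adjusted p = 2.75e-04) and LRL2 (-1.52, adjusted p = 3.00e-04) called, with 48.1% of all loci called. In wild type the count rose from 2 to 5 without either mutant sample of day 4, where 60.1% of all loci were called.

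From day 4 to day 7, 6 of 8 genes were called in wild type, all lower, where 22.3% of all loci were called and 11.4% lower. These were RSL4 (-2.72 ± 0.57, SE), LRL3 (-2.70 ± 0.48), RSL2 (-2.37 ± 0.58), LRL2 (-1.46 ± 0.35), RHD6 (-1.30 ± 0.33) and LRL1 (-1.15 ± 0.29), with adjusted p between 0.00423 and 0.0184. The RHD6 call was lost with the 32 arrays fitted with the sample as a random block (adjusted p = 0.0530). This step depends on scaling: in the values as deposited RHD6, LRL1 and LRL2 went up by 0.58, 0.63 and 0.51, while RSL2, RSL4 and LRL3 remained lower by smaller, uncalled amounts. In the mutant 2 of 8 were called, RSL4 (-2.23 ± 0.57, adjusted p = 0.0326) and LRL3 (-1.99 ± 0.48, adjusted p = 0.0263), where 11.6% of loci were called and 5.88% lower. As deposited these 2 changes were -0.32 and -0.00, and with array weights neither was called (adjusted p = 0.217 and 0.207). No gene of the 8 was called from day 7 to day 10 in wild type (0.293% of loci) or in sahh1 (0.467%), where limma gave an unadjusted p under 0.05 for 0 and 2 of them. Those 2 were RSL4 (-1.44 ± 0.57, adjusted p = 0.248) and LRL3 (-1.18 ± 0.48, adjusted p = 0.264), and both were called without either mutant sample of day 4, where 7.46% of all loci were. Array medians differ between ages, and whether the ages were normalized separately is not stated. Age and the scaling or hybridisation of the arrays therefore cannot be told apart.

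Single samples also decided most calls between days 4 and 7. In wild type, calls were lost without the second sample of day 4 or either sample of day 7. Fewer of all loci were called in these fits, too. With 1 sample left out, the falls ranged from -1.81 to -0.80 for RHD6 and from -2.72 to -2.03 for RSL2. Those of LRL1 ranged from -1.29 to -1.02 and those of LRL2 from -1.69 to -1.22. Without the second day 4 sample RHD6 (adjusted p = 0.114), RSL2 (0.0891), LRL1 (0.0889) and LRL2 (0.0537) were lost. Without the first day 7 sample the same 4 were lost (0.116, 0.0740, 0.103 and 0.103). Without the second day 7 sample RSL2 (0.0772), RSL4 (0.0578) and LRL1 (0.0580) were lost. LRL2 was lost, too, without the first wild-type sample of day 4 (0.0630). In the mutant no call was left without the first or second mutant sample of day 7 (2.87% and 3.44% of all loci called). Without the first mutant sample of day 4, 6 genes were called (38.2% of all loci), among them RSL3 (-1.49, adjusted p = 0.00211) and, higher at day 7, RSL2 (0.98, adjusted p = 0.0268). RSL4 alone was lost without any 1 sample of day 1 (0.0515 to 0.0529), and both RSL4 (0.0714) and LRL3 (0.0517) fell short without the second mutant sample of day 4, where RSL2 was called (-1.47, adjusted p = 0.0151).

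Whether the genotype difference changed with age was tested for each gene by an F test over the 4 ages. None of the 8 was called, against 0.615% of all loci. The lowest adjusted p was 0.492, for RHD6 (unadjusted p = 0.0430), followed by RSL2 (0.549) and LRL3 (0.570), and the other 5 lay between 0.803 and 1.00. The result turned on the mutant samples of day 4. Without the first, RSL2 (adjusted p = 0.00217) and LRL3 (0.0339) were called, and without the second LRL3 was (0.0146), with 6.76% and 4.72% of all loci called.

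The order of the 8 groups differed between genes (means of quantile-normalized log2 intensity). For RHD6 both day 1 groups were highest (10.52 in sahh1 and 10.44 in wild type), wild type at day 4 was next at 7.91, and the other 5 groups, from 6.91 down to 6.58, overlapped with their neighbours in the order. RSL1 showed the 2 day 1 groups (6.74 and 6.62) apart from the other 6, which lay between 4.60 and 4.29. RSL2 peaked in wild type at day 4, at 8.52, apart from wild type at day 1 (7.16). RSL3 ranged from 5.66 to 4.53, the narrowest spread of the 8. RSL4 and LRL3 were lowest in sahh1 at day 10, at 5.54 and 6.34, in each case apart from the group above. For LRL3 wild type at day 4 (11.22) overlapped with the 2 day 1 groups (11.03 and 10.96), and the groups from wild type at day 7 (8.52) down were each apart from the next.

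A locus's rank among all loci of the same array does not depend on how that array was scaled. LRL3 averaged a percentile of 59.1 in wild type at day 1, 61.8 at day 4, 41.5 at day 7 and 39.9 at day 10, and in sahh1 59.8, 48.1, 36.6 and 30.5. The rank of LRL3 was thus below wild type at the 3 later ages, with arrays apart at each. RSL4 averaged 53.1, 49.4, 34.6 and 32.3 in wild type and 53.7, 46.5, 33.9 and 25.2 in sahh1. RHD6 went from 54.2 at day 1 to 38.5, 32.1 and 33.6 in wild type, and from 54.9 to 31.4, 31.9 and 33.0 in sahh1. RSL1 was below the 25th percentile on 24 of 32 arrays and RSL3 on 29 of 32, which limits what the arrays can show for these genes. LRL1, LRL2 and LRL3 were above it on all 32 arrays, and RHD6, RSL4 and RSL2 were below it on 1, 2 and 3.

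**Figure D3:**
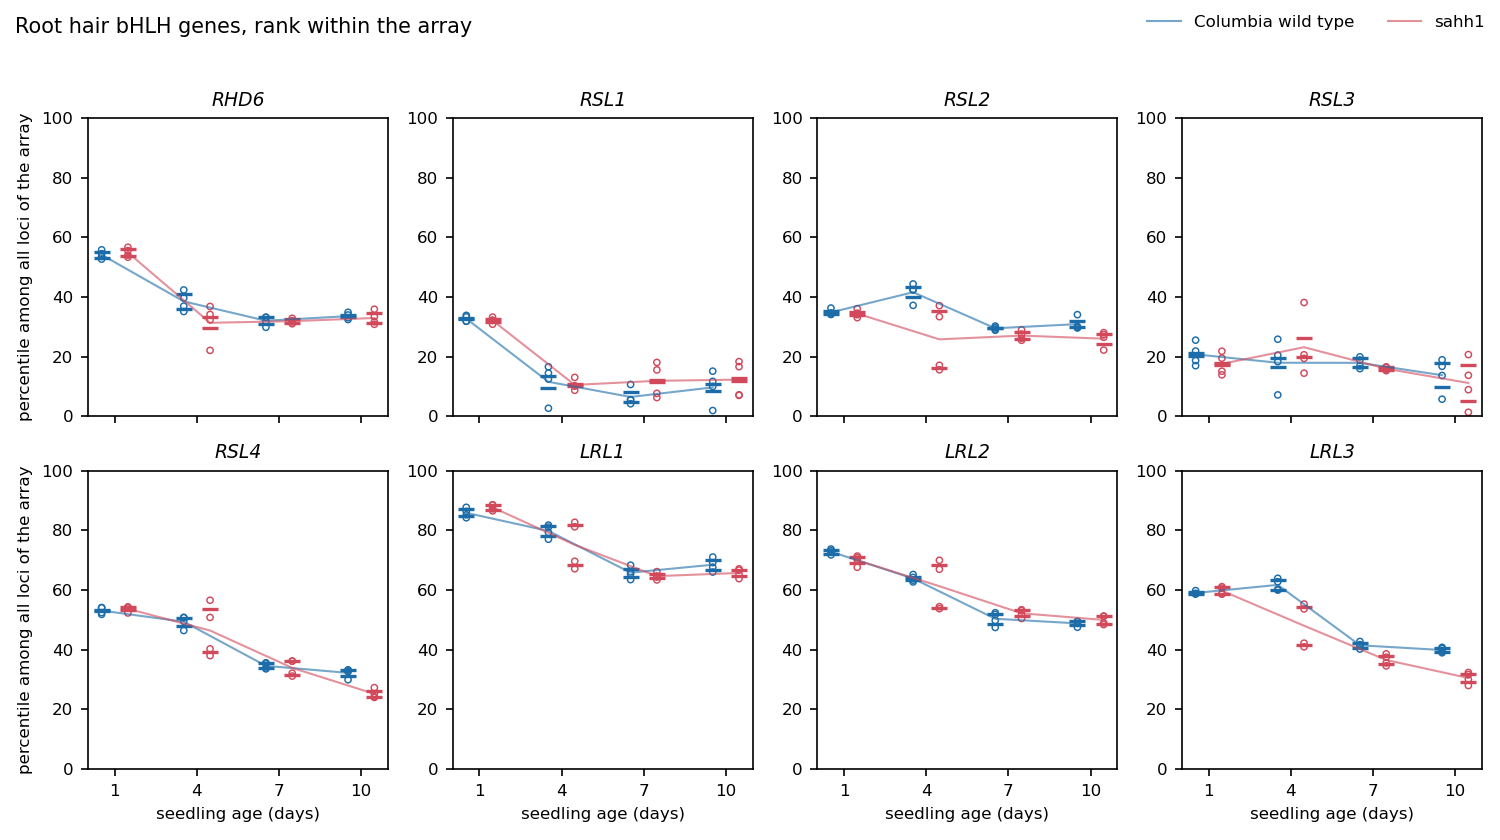
Percentile of each of the 8 genes among all loci of the same array (vertical axis, 0 to 100) against seedling age in days. Circles are arrays, bars the 2 samples of a group and lines group means, blue for Columbia wild type and red for sahh1. RHD6 and RSL1 drop between days 1 and 4 in both genotypes, and LRL3 in sahh1 lies below wild type from day 4, reaching 30.5 at day 10 against 39.9.

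The 8 genes did not share 1 profile over the 16 samples (Pearson r of quantile-normalized log2 intensity, given as a description, since samples of an age share their age and may share a scaling). RSL4 and LRL3 were most alike (r = 0.97), followed by RHD6 and RSL1 (0.96), LRL1 and LRL2 (0.96), RSL4 and LRL2 (0.94) and RSL4 and LRL1 (0.93). By rank (Spearman rho) RHD6 and RSL1 were less alike, at 0.65, beside 0.85 for RSL4 and LRL3 and 0.84 for LRL1 and LRL2. RSL3 had the lowest values, with r = -0.11 to RSL2, 0.08 to RHD6 and 0.10 to RSL1. Its r was higher to RSL4 (0.60), LRL2 (0.57), LRL3 (0.52) and LRL1 (0.47). Among 22782 other loci left once the dimmest 25% were set aside, the closest to RHD6 were the NAC-family gene NAC094 (r = 0.99), AT2G34020 and AT4G15160 (0.98 each). RSL1 was closest to LATE, a zinc finger gene (0.99), AT1G53645 and MEE8 (0.99 each). RSL2 was closest to AT1G64210 (0.96), AT1G32910 (0.94) and AT5G01380 (0.92), and RSL3 to AT1G49790 (0.89), STY1 (0.88) and AT4G21660 (0.87). For RSL4 the nearest were GH9C1, which encodes an endoglucanase (0.99), AT1G67330 (0.99) and AT4G26010 (0.98). LRL1 was nearest to AT5G14150, the LOB-domain gene LBD18 and AT2G40620 (0.98 each), and LRL2 to AT1G05280, TRM5 (0.99 each) and AT2G02780 (0.98). LRL3 was nearest to AT4G33730, AT5G61550 and AT1G05240 (0.99 each).

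The listed genes acting before the 8, and further bHLH genes of the same subfamilies, were not called at any age. Of 12 epidermal patterning genes, which decide between hair and non-hair fate, none was called, with medians of -0.03, 0.29, 0.12 and 0.04 at days 1, 4, 7 and 10. TRY, a small MYB protein that favours hair fate, differed by 0.76 ± 0.25 (SE) at day 4 (adjusted p = 0.169), and MYB23, a MYB factor of non-hair cells, by -0.72 ± 0.23 at day 1 (adjusted p = 0.228). Of 18 hormone and growth inputs none was called, with medians of 0.05, -0.13, -0.03 and -0.00. RALF1, a peptide ligand of the receptor kinase FERONIA, differed by -0.75 ± 0.38 at day 4 (adjusted p = 0.393), and GTL1, a trihelix repressor of hair growth, by 0.71 ± 0.24 (adjusted p = 0.192). Of 3 further bHLH genes of the same subfamilies none was called, the largest differences being -0.30 ± 0.21 for AT5G43175 at day 4 (adjusted p = 0.553) and -0.13 ± 0.13 for UNE12 at day 1 (adjusted p = 1.00).

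Among genes acting after the 8, part of the effectors fell in sahh1. Of 31 root hair effectors none was called at day 1 or day 7, 8 were lower at day 4 (0.833% of all loci were lower), 14 at day 10 (0.201%) and 18 on the mean of the ages (1.03%), and none was higher. At days 1 and 7 limma's lowest adjusted p among them was 1.00 and 0.104. Their median differences were -0.05, -1.09, -0.61 and -1.74 at the 4 ages. The largest falls on the mean of the ages were those of RHS13 (-1.57 ± 0.21, SE, adjusted p = 0.00107), RHS19, a peroxidase gene (-1.41 ± 0.27, 0.0113), MRH6 (-1.39 ± 0.16, 3.56e-04), PRP1, a proline-rich wall protein gene (-1.38 ± 0.23, 0.00500), XTH14, a xyloglucan endotransglucosylase gene (-1.20 ± 0.22, 0.00871), and RHS14, a pectate lyase gene (-1.18 ± 0.18, 0.00291). These 6 stayed called without any 1 sample, and all but RHS14 (-0.89, adjusted p = 0.0950) with day 4 left out of the mean.

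At day 10 the largest effector falls were RHS13 (-3.05 ± 0.42, SE), RHS19 (-2.94 ± 0.53), PRP1 (-2.93 ± 0.46), XTH14 (-2.49 ± 0.43), PRP3, a second proline-rich wall protein gene (-2.29 ± 0.30), and LRX1, which encodes a leucine-rich repeat extensin (-2.18 ± 0.33), with adjusted p from 0.00270 to 0.0224. For comparison, LRL3 differed by -1.95 ± 0.45 and RSL4 by -1.17 ± 0.52 at that age. The count of 14 dropped without any 1 sample of day 10. So did the share of all loci called, so the drop cannot be read as particular to the effectors. PRP3 was the 1 of these 6 that no omission of a sample took out (adjusted p at most 0.0458). At day 4 the largest called falls were those of RHS14 (-2.07), RHS18 (-2.02), RHS13 (-2.00), MRH6 (-1.94), RHS16 (-1.77) and RHS8 (-1.46). That count of 8 dropped without either wild-type sample of day 4, any 1 sample of day 1 or either wild-type sample of day 10. It rose without the second mutant sample of day 4. The share of all loci called moved the same way in each of these fits. Without the first mutant sample of day 4 the count dropped, while the share of all loci called rose. Against the wild-type mean, the 2 mutant samples of day 4 had effector medians of -1.35 and -0.84, while the medians of the 8 bHLH genes were -0.88 and 0.13.

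**Figure D4:**
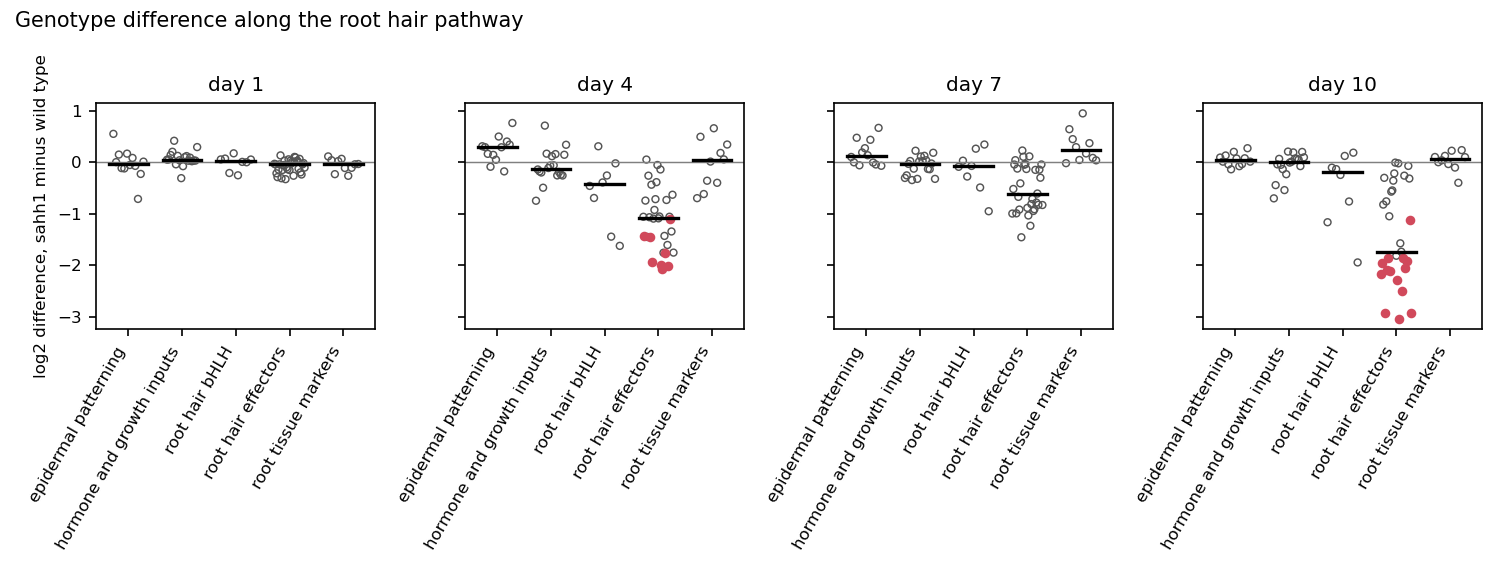
Difference between sahh1 and wild type in log2 units (vertical axis) for genes grouped by their place in the root hair pathway, with root tissue markers beside them, in 1 panel per age. Points are genes, filled red where called, and bars are group medians. At day 1 the medians of all 5 groups lie near 0, with single patterning genes from -0.72 to 0.55. The effectors reach medians of -1.09 at day 4 and -1.74 at day 10, while the bHLH genes have medians of -0.43 and -0.19.

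Markers of other tissues were measured beside these genes. None of 10 root tissue markers was called, with medians of -0.04, 0.03, 0.23 and 0.06 at days 1, 4, 7 and 10, and none ranked below the 25th percentile in any group. The largest differences were those of WOX5, a gene of the quiescent centre (0.94 ± 0.45 at day 7, SE, adjusted p = 0.702), and NRT2.1, a nitrate transporter gene (-0.70 ± 0.24 at day 4, adjusted p = 0.196). Intensity of the root markers was summed on the linear scale, where the brightest weigh most. At day 4 the sums were 82154 to 84231 in wild type and 75747 to 87640 in sahh1. At day 10 they were 70818 to 75069 and 70129 to 78435, and the ranges of the genotypes overlapped at both ages. At day 7 the sums were 89619 to 99713 and 99862 to 102974, higher in sahh1. Of 5 shoot photosynthesis markers none was called, the largest difference being 0.62 ± 0.16 for LHCA1 at day 1 (adjusted p = 0.0849), followed by 0.21 ± 0.35 for PSAD1 at day 4 (0.838). Their sums overlapped at days 1, 4 and 10 and were 274060 to 278242 in wild type and 260513 to 270514 in sahh1 at day 7. Of 4 seed storage markers none was called, the largest differences being -0.68 ± 0.27 for SESA1 (adjusted p = 0.472) and -0.63 ± 0.65 for CRC (1.00), both at day 1. Their sums at day 1 were 36682 to 42279 in wild type and 31898 to 35610 in sahh1, and at the later ages at most 2062. The part that the day 7 and day 1 shifts of these markers have in the values of the 8 genes was not tested.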

How the data were processed

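Labelled RNA of whole seedlings was measured on 32 NimbleGen arrays. The values deposited by the authors are linear intensity, 1 per locus on each array, normalized with RMA per the submitters' processing notes. Probe-level data, any version and the genome build are not given in the sources used here, so no coordinates are given. Log2 was taken of the deposited intensity. Symbols are those of the reference annotation, matched by locus tag (29996 of 30385 loci), except RSL3 and SAHH1, which the reference lists without a symbol and as HOG1.

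The limma package (3.58.1, R 4.3.3) was fitted to 16 samples with 1 mean for each of 8 groups (8 residual degrees of freedom, prior 3.16 for genotype and 2.54 for age). No filter on level was applied. Genotype was compared on values as deposited, ages and the interaction after quantile normalization over all arrays. The Benjamini-Hochberg adjustment ran over all loci of a comparison.

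The 8 genes and the 7 further lists (83 entries) were chosen with earlier results of these data known, and no list was tested as a set. The text names all 8 genes; of each list up to 6 called genes per comparison of genotype with the largest differences, or, where none was called, the 2 with the largest differences; and the 3 loci most like each gene. Array precision is limited by the number of arrays and samples. Simulated data served to test the fit. Alternatives were other normalizations, arrays in place of samples, random and fixed blocks, groups fitted alone, omission of the dimmest 25% of loci, array weights, another prior and omission of each sample.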

Additional observations from a re-analysis of the deposited data

Results flagged for a closer look

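In 64 sets of 4 arrays (8 genes in 8 groups), 2 held an array far from the other 3 (Dixon's test at its 95% critical value), where chance alone gives about 1 in 20. For RSL2 in wild type at day 10, 1 array read 7.02 log2 units and the nearest of the others 6.19. For RSL3 in sahh1 at day 4, 1 array read 6.66 and the nearest 5.43, in the group whose 2 samples stand furthest apart. That array belongs to the second sahh1 sample of day 4. RSL3 was not called in the comparisons as reported. Without the first sample of that group it was called from day 1 to day 4 (1.37, adjusted p = 0.00134) and from day 4 to day 7 (-1.49, adjusted p = 0.00211) in sahh1, and in the values as deposited it was called from day 1 to day 4 in wild type (1.01, adjusted p = 0.00476) and in sahh1 (1.53, adjusted p = 2.78e-04). The high RSL2 array raises the wild-type side of the RSL2 difference at day 10.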

How the results depend on the processing

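Of 990 recomputed genotype differences of the 8 genes, 968 kept their side of the threshold, 21 became called, 1 lost its call (LRL3 on the mean of the ages without the second wild-type sample of day 4) and none turned sign while called, although 32 uncalled ones did. Of 1092 recomputed age differences 988 stayed, 58 became called, 36 lost the call and 10 turned sign where one of both values was called. Those 10 were, in values as deposited, RSL3 from day 1 to day 4 in wild type (1.01), RHD6, LRL1 and LRL2 from day 4 to day 7 in wild type (0.58, 0.63 and 0.51), RHD6, RSL1, LRL1 and LRL2 from day 4 to day 7 in sahh1 (1.31, -0.43, 0.96 and 1.03) and LRL1 from day 7 to day 10 in sahh1 (-0.78), where the ages keep their different array medians, and RSL2 from day 4 to day 7 in sahh1 without the first mutant sample of day 4 (0.98, and -1.47 without the second).

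Counts of the 8 genes called between genotypes moved as follows. At day 4, 0 became 1 with quantile normalization (4.4% of all loci called), 3 with 32 arrays (17.7%) and 2 with the sample as a random block. At day 10, 0 became 1, LRL3, with 32 arrays (4.29%), the random block, the replicate block, the 2 groups alone and array weights. On the mean of the ages 1 became 2 with 32 arrays (11.8%). Counts of 31 effectors at day 4 went from 8 to 25 with 32 arrays, 24 with the random block, and 0 with the groups alone or array weights. The day 7 count rose from 0 to 1 with cyclic loess, 6 with 32 arrays, 5 with the random block and 1 with the replicate block, and the day 10 count moved from 14 to 9 with quantile normalization and 22 with 32 arrays. Effectors were run under added alternatives, chosen after the data were seen.

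Between ages in wild type, the count from day 1 to day 4 went from 2 to 6 as deposited (83.0% of all loci called). It was 5 with 32 arrays (62.6%), the random block or array weights. With the dimmest loci left out it was 1 (RSL1 and RSL3 are then not tested). From day 4 to day 7 it went from 6 to 1 as deposited (82.7% of all loci), and from day 7 to day 10 from 0 to 4 (62.2%). In sahh1 the first step went from 4 to 7 as deposited (83.0% of all loci) or with 32 arrays (61.6%). The LRL3 call of that step was lost with array weights. The second step went from 2 to 5 as deposited (83.9%), 4 with 32 arrays (35.0%) or the random block and 0 with array weights. The third went from 0 to 4 as deposited (60.7%) and 2 with 32 arrays (19.0%), the random block or array weights. The interaction went from 0 to 2 with 32 arrays (10.4% of all loci) and 1 with the random block. Shares of all loci under the blocks and array weights are not given here.

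With 1 sample left out, counts of the 8 genes stayed 0 at days 1 and 7 and spanned 0 to 4 (day 4), 0 to 1 (day 10) and 0 to 2 (mean of the ages). For effectors the spans were 0 to 19 (day 4), 1 to 16 (day 10) and 14 to 24 (mean). Age counts in wild type ranged from 2 to 5, 2 to 6 and 0 to 0 over the 3 steps, in sahh1 from 2 to 6, 0 to 6 and 0 to 2, and the interaction from 0 to 2. A group left with 1 sample takes its spread from the other groups. The share of all loci called also moved with the sample left out, so these spans cannot be read as particular to the 8 genes or to the effectors. At day 4 the share was highest without the second mutant sample of that age, the fit with most calls of the 8 genes. For the interaction it was highest without the first, again the fit with most calls. In sahh1 from day 1 to day 4, the count was highest without the second, where the share was slightly below that with all samples.

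Replicate numbers are shared by the groups, but same-numbered arrays deviated together at day 7 (r 0.62 to 0.64), weakly at day 4 (0.13 to 0.14) and not at day 10 (0.01 to 0.03) or day 1 (-0.29 to -0.26), so not every age passes the limit of 0.1 and the numbers were not taken to pair the samples. With the number as a replicate block LRL3 at day 10 had an adjusted p of 0.0326, and RHD6 from day 4 to day 7 in wild type lost its call (0.0568). With 2 samples a group, differences under about the width of the intervals printed cannot be seen, and RSL1 and RSL3 lie near the bottom of the intensity range.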
